A study of Mus musculus with 6 samples.

Results

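The 10 genes described here (Actb, Actg1, Tmsb4x, Tmsb10, Pfn1, Cfl1, Arpc1b, Arpc2, Arpc3 and Coro1a) encode the actin of the cell cortex and the proteins that store, polymerise, branch and sever it. In mm10, Actb lies at chr5:142903115-142906754, Actg1 at chr11:120345690-120348542 and Tmsb10 at chr6:72957347-72958748, all on the minus strand. The genes were chosen by symbol, with no threshold on a value but with earlier results of these data known, and are 10 of the 32285 genes counted. Every cell came from Line 61 mice, which express human α-Syn under the Thy1 promoter, so the transgene was present in the controls too. Male mice 12 to 15 weeks old received bilateral striatal injections of PBS, monomeric human α-Syn (monomer) or preformed α-Syn fibrils (PFF). From 2 weeks after PFF injection, mice were given AZD1480, a JAK1/2 inhibitor, at 25 mg/kg by daily gavage, or the DMSO vehicle (VH). At 6 weeks, CD45+ cells were sorted from midbrain and profiled by scRNA-Seq in 4 libraries, 1 for each treatment (PBS, monomer, PFF + VH, PFF + AZD1480). Each sample pooled 3 to 5 ventral midbrains, and the PFF + VH and PFF + AZD1480 libraries hold 4 and 5 hashtags, antibody-borne barcodes taken here as marking such samples.

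Actin exists as free monomers and as filaments. Thymosins hold monomers in reserve, profilin feeds them to growing ends, the Arp2/3 complex starts side branches, and cofilin severs old filaments. Microglia depend on this cycle to move their processes and to engulf debris. When monomers are consumed, a cofactor sensitive to free actin is released to the transcription factor SRF, which binds the CArG box in the control regions of actin genes and of several immediate early genes.

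RefSeq promoters of GRCm38.p6, taken from 250 bases before to 50 after a start site, were matched for 9 of the 10 genes, all but Actb, and gave 12 windows. A CArG box was present in 1 of the 12, that of Actg1, against 1.64% of all promoters of the same length. The stretch from 150 to 51 bases before the Actg1 start is shown because Actg1 had the steepest relation to immediate early RNA, and that of the most upstream Tmsb10 start because Tmsb10 differed most between cell classes and between treatments. Capitals mark the CArG box, which lay 90 to 81 bases before the Actg1 start.
Actg1, chr11:120348546-120348645, minus strand: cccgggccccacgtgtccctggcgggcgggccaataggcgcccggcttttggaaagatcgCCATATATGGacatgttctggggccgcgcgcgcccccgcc
Tmsb10, chr6:72958799-72958898, minus strand: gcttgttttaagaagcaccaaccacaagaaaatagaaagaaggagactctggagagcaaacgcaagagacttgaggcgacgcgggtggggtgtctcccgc
The letters TTCNNNGAA, a spacing that STAT dimers bind, were searched on both strands and were in 0 of the 12 windows, against 8.33% of all promoters. A match or its absence describes only the letters of these windows.

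Cells passing the filters numbered 13021 to 34436 per library. Before the filters, all barcodes of a library together held 99658216 to 116440449 UMIs. PFF + VH stood apart in depth, with a median of 2306 UMIs per cell against 6616 to 7028 in the others. Libraries shared 45 to 151 cell barcodes in pairs. Cells were classed by marker UMIs that include no actin gene, as microglia (MG, 10465 to 28906 per library), border-associated macrophages (BAM, 224 to 302), monocytes (Mono, 19 to 50), T cells (86 to 142) and smaller groups of NK cells, dendritic cells (DC), B cells and neutrophils (Neu). BAM and Mono together are called MM. All markers of a class were detected in that class in each library, except 1 DC marker in monomer and 1 in PFF + VH. Levels are given as CPM, the UMIs of a gene as a share of all UMIs of the summed cells on the usual CPM scale. Condition and library cannot be told apart, and p-values over hashtags rest on the spread between hashtags, which may be technical. For AZD1480 against VH, that spread lies within each library, so variation between libraries does not enter these p-values.

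In MG, Actb and Tmsb10 were higher in PFF + VH than in the other libraries. Actb, the main cytoplasmic actin, was at 4906 CPM (95% Poisson interval 4892 to 4921) with PBS and 4938 (4923 to 4952) with monomer. It was at 6607 (6591 to 6624) after PFF with VH and 4746 (4730.5 to 4762) after PFF with AZD1480. Tmsb10, a thymosin that binds actin monomers, was at 68.9 CPM (67.2 to 70.7), 68.1 (66.4 to 69.9), 124 (121 to 126) and 76.6 (74.6 to 78.6) in the same order. Actg1, the second cytoplasmic actin, was at 840.0, 837, 831 and 864 CPM. Thus the PFF + VH library was the high one for Actb and Tmsb10, while Actg1 stayed within a narrow band in these sums over cells of all depths. These intervals cover counting error only, and there is 1 library per condition, so no test is given.

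Of the 10 genes, 3 were at least 1.2-fold higher in PFF + VH than in monomer MG (Actb 1.34-fold, Tmsb10 1.82-fold and Arpc1b 1.21-fold) and 0 were at least 1.2-fold lower, against 8.86% of all genes higher and 12.3% lower. None of the 10 passed that fold between monomer and PBS, where 0.492% of genes were higher and 1.62% lower. None passed it between PFF + AZD1480 and monomer either, against 7.67% and 4.72%, although in cells thinned to 1000 UMIs Tmsb10 did (1.30-fold higher, against 7.83% of genes). Summed over the 10 genes, the PBS library had 17819 CPM and the monomer library 17870.3, while PFF + VH had 20359.7 and PFF + AZD1480 17628.

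The hashtags of the PFF libraries gave the spread between samples. Actb in MG was at 6271, 6695, 6583 and 6307 CPM in the PFF + VH hashtags and at 5174, 4725, 4533, 4683 and 4608 in the PFF + AZD1480 hashtags. The groups did not overlap, and their means were 6464 ± 208 (SD, n = 4) and 4745 ± 251 (SD, n = 5). Tmsb10 was at 131, 126, 145 and 102 CPM with VH and at 76.8, 86.5, 73.4, 63.5 and 84.3 with AZD1480, again with every AZD1480 hashtag below every VH hashtag. Actg1 was at 795, 943, 839 and 777 CPM with VH and at 955, 898, 783, 818 and 902 with AZD1480, and the groups overlapped throughout.

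The hashtag sums of MG were tested by quasi-likelihood in edgeR on 13412 genes, with p-values adjusted by Benjamini-Hochberg. With AZD1480, 8 of the 10 genes were lower and 0 were higher. Of all genes tested 26.5% were called, 14.2% of all being lower and 12.3% higher. The 10 genes were at 63.5 CPM or more in every MG hashtag, and no share over genes of like level was computed. The median log2 fold change was -0.21 over the 10 and -0.00057 over all genes. Among the monomer-binding proteins, Tmsb10 fell by 0.77 ± 0.11 (SE) on the log2 scale (0.587-fold, adjusted p = 0.000356), Pfn1, or profilin 1, by 0.33 ± 0.068 (adjusted p = 0.00393) and Tmsb4x, thymosin β4, by 0.17 ± 0.058 (adjusted p = 0.0489). Actb fell by 0.50 ± 0.063 (0.708-fold, adjusted p = 0.000174), whereas the log2 fold change of Actg1 was 0.0011. Its 95% interval by normal approximation was from -0.15 to 0.15, which is narrower than the edgeR test implies. Of the Arp2/3 subunits, Arpc3 fell by 0.31 and Arpc1b by 0.18 on the log2 scale (adjusted p = 0.000479 and 0.0133), and Arpc2 was at -0.080 (adjusted p = 0.298). Cfl1, the severing protein cofilin 1, fell by 0.23 (adjusted p = 0.00783) and Coro1a, a coronin of leukocytes, by 0.15 (adjusted p = 0.0305). The call of Tmsb4x was lost in 8 of 9 fits that left out 1 hashtag, and that of Coro1a in 5.

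Every AZD1480 hashtag was below every VH hashtag for 7 of the 10 genes (all but Actg1, Tmsb4x and Arpc2), against 9.8% of genes tested. With library totals in place of TMM scaling, 6 of the 10 were called lower, and the calls of Tmsb4x and Coro1a were lost, while the calls over all genes turned from 1649 higher and 1906 lower to 2302 higher and 1472 lower. Several measures moved with the groups in MG. UMIs per cell were 3333 to 4111 with VH and 6326 to 7366 with AZD1480, and the summed CPM of the 12 T cell markers was 10.4 to 15.1 and 5.48 to 8.25. Gm42418, a gene overlapping rRNA, was at 11042 to 11895 and 8311 to 8629 CPM. Mono markers were at 23.1 to 29.5 and 11.1 to 14.8 CPM, and mitochondrial RNA at 11522 to 13811 and 9192 to 10344. Depth and treatment cannot be told apart between these libraries. In MG with 3000 to 6000 UMIs, 9 of the 10 genes, all but Tmsb4x, were lower with AZD1480, with Actg1 at a log2 fold change of -0.34 (adjusted p = 0.0120), against 11.8% of all genes called (502 higher, 791 lower). With every cell thinned to 1000 UMIs, 5 were lower, against 14.5% of all genes called, and the calls of Tmsb4x, Arpc1b and Coro1a were lost. With Gm42418, Malat1 and mitochondrial genes left out, 7 were lower, against 26.4% of all genes called, and the call of Tmsb4x was lost (adjusted p = 0.0526). The part of T cell and Mono RNA was not tested.

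**Figure D1:**
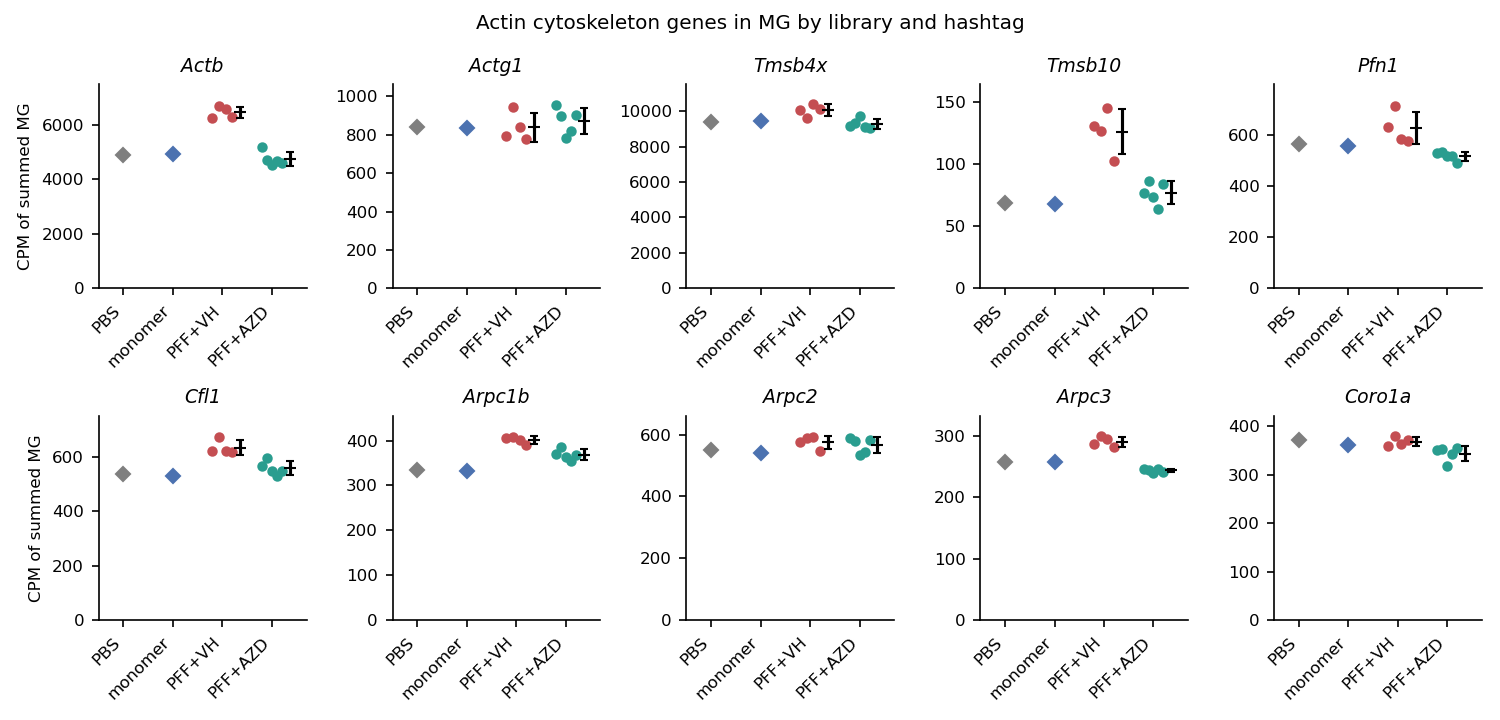
Level of each gene in MG, in CPM of the summed cells on axes that start at 0, for the 4 libraries and for the hashtags of the PFF libraries. Actb and Tmsb10 hashtags of PFF + VH lie above all those of PFF + AZD1480, and Actg1 hashtags overlap.

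**Figure D2:**
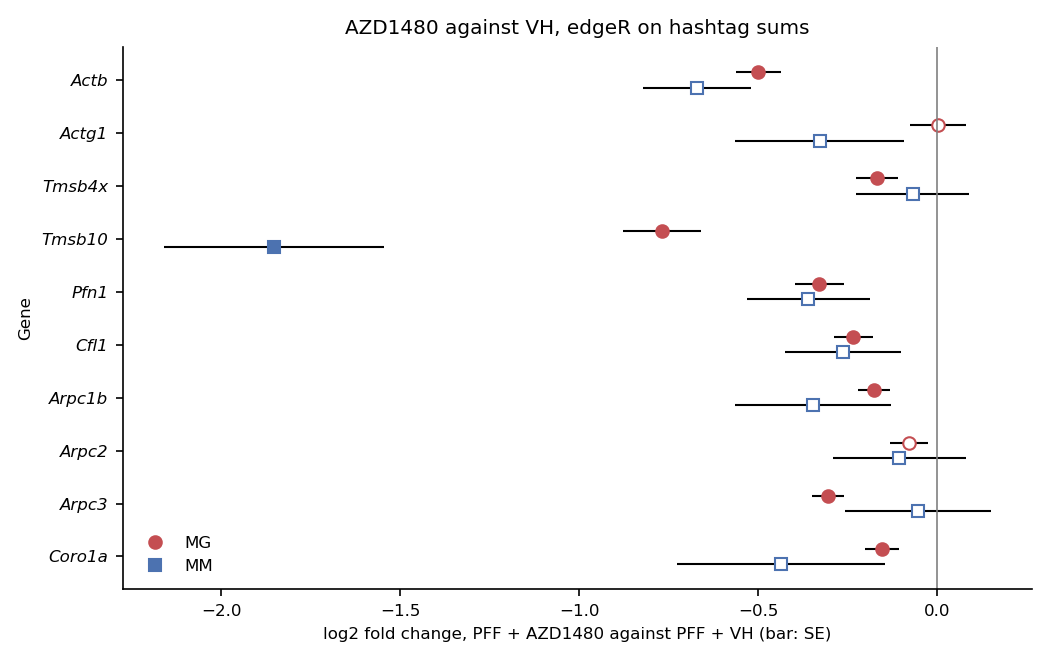
Log2 fold change of AZD1480 against VH for each gene in MG and MM, with SE bars, from edgeR on hashtag sums. In MG 8 of the 10 genes were called lower, and in MM only Tmsb10 was, at -1.85.

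MG were also binned by their UMIs. From the shallowest to the deepest of 4 bins, Actb was at 6380.2, 7126, 6897 and 6008 CPM in PFF + VH and at 3279, 4642, 4432 and 4823 in PFF + AZD1480. In monomer it was at 2559.6, 2779.5, 4347 and 5118, and in PBS at 2343, 2701, 4213 and 5068. Actb was thus higher in PFF + VH in each of the 4 bins, and in the other libraries it was lowest in the shallowest cells. Actg1 was at 697, 787, 847 and 877 CPM in PFF + VH and at 590, 675, 715 and 902 in PFF + AZD1480. In monomer it was at 537, 524, 673 and 878, and in PBS at 431, 477, 604 and 885. Unlike in the sums over all depths, Actg1 was thus highest in PFF + VH in the 3 shallower bins. Tmsb10 was at 145, 130.0, 120.1 and 117 CPM in PFF + VH and at 90.02, 121, 81.7 and 73.7 in PFF + AZD1480, with PFF + VH above PFF + AZD1480 in 4 of 4 bins, although the Poisson intervals overlapped in the bin from 1500 to 3000 UMIs. Coro1a was higher in PFF + VH than in PFF + AZD1480 in 4 of the 4 bins, Tmsb4x, Pfn1, Cfl1 and Arpc3 in 3, and Arpc1b and Arpc2 in only 2. In the bin from 1500 to 3000 UMIs, Tmsb4x was at 13858 CPM in PFF + AZD1480 and 10276 in PFF + VH. Pfn1, Cfl1, Arpc3, Arpc1b and Arpc2 were also higher in PFF + AZD1480 in that bin.

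Single MG also differed in Tmsb4x and Actb. In cells thinned to 1000 UMIs, a median MG held 8 Tmsb4x UMIs in the PBS and PFF + AZD1480 libraries and 9 in the other 2, and in the order PBS, monomer, PFF + VH and PFF + AZD1480 the variance was 3.11, 3.06, 2.37 and 4.61 times the mean. The median Actb count was 4, 4, 6 and 4, with a variance 1.87 to 2.02 times the mean. The Actb median was highest in PFF + VH, and its variance relative to the mean was alike between libraries. Thinning left out 261 to 3760 MG per library that were shallower than 1000 UMIs.

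**Figure D3:**
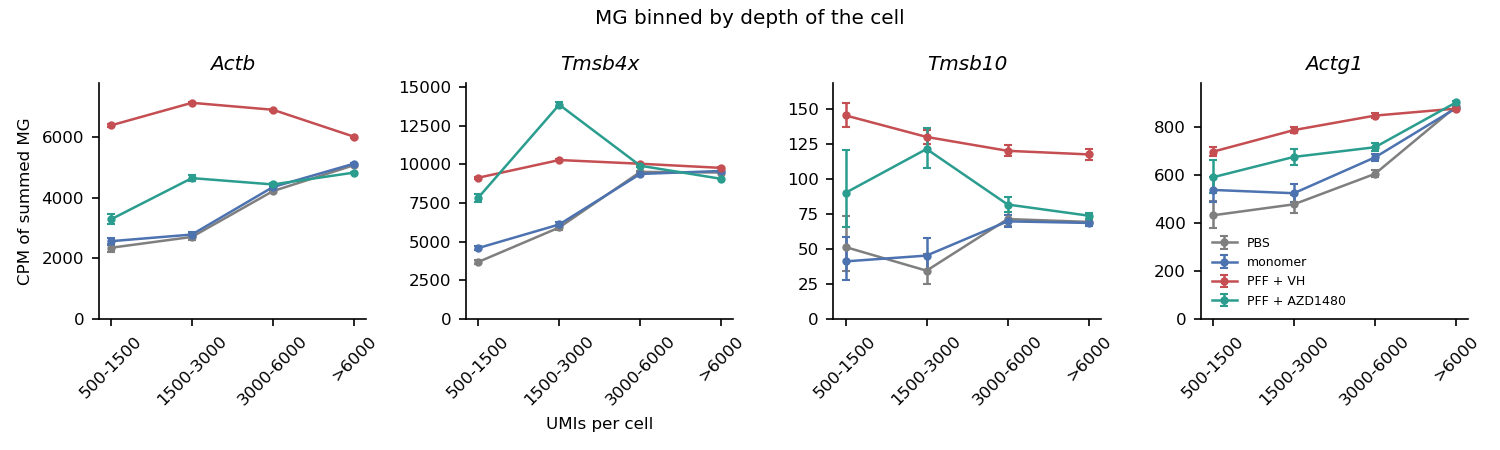
Level of 4 genes in MG grouped into 4 bins of UMIs per cell, in CPM with 95% Poisson bars, 1 line per library. Actb of PFF + VH lies above the other libraries in each bin, from 7126 to 6008 CPM in the upper 3.

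Across cell classes, Tmsb10 showed the widest range. It was at 1705 to 2159 CPM in T cells, 1860.1 to 2372 in NK cells, 913 to 2287 in Mono, 742 to 1068 in DC and 605 to 1159 in B cells of the 4 libraries. In MG it was at 68.1 to 124 CPM, in BAM at 44.4 to 202 and in Neu at 28.7 to 131. The lymphoid cells, Mono and DC thus lay above MG, BAM and Neu in all libraries, and neighbours within each of these orders overlapped between libraries. Neu, which were high in Pfn1 and Coro1a (1248 to 2014 and 713 to 1257 CPM), were among the lowest in Tmsb10. Tmsb10 was highest in PFF + VH in 8 of 8 classes, Actb in 7 and Cfl1 in 4. Tmsb4x and Arpc1b were so in 3, Actg1 and Arpc2 in 2, Pfn1 and Arpc3 in 1, and Coro1a in 0. The classes share the same 4 libraries, and the share over all genes was not computed.

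Hashtag sums of MG, MM and T cells were compared in 1 edgeR fit with the hashtag as a block. Against MG, T cells were higher in 6 of the 10 genes and lower in 0, where 55.3% of 5179 genes were called (24.0% higher, 31.3% lower) and the median of all genes was -0.13. Tmsb10 was at 2465, 2014, 2079 and 2702 CPM in T cells of the VH hashtags and at 2045, 1742 and 2150.4 in the 3 AZD1480 hashtags with at least 10 T cells. Each value was over that of MG of the same hashtag, and the difference was 4.44 ± 0.24 (SE) on the log2 scale (21.6-fold, adjusted p = 1.11e-15). How many of all genes were over MG in each hashtag was not computed. Pfn1 was higher by 1.42, Coro1a by 0.87, Arpc3 by 0.78, Tmsb4x by 0.50 and Cfl1 by 0.34 (adjusted p from 2.71e-11 to 0.0190). The T cell sums also held MG markers, at 1932 to 2439 CPM with VH and 646 to 836 with AZD1480, against 9689 to 10827 in MG. The call of Cfl1 was lost without PFF + VH replicate 1 or 4 or PFF + AZD1480 replicate 1. With RLE scaling, cells thinned to 1000 UMIs or another MG marker limit, 5 of the 10 genes were higher and 0 lower. Of all genes, 55.4%, 65.2% and 58.6% were called in these settings. With no filter on low counts the median of all genes shifted to -0.94, and 3 of the 10 genes were higher (Tmsb10, Pfn1 and Coro1a) and 2 lower (Actb by 0.49 and Actg1 by 0.39 on the log2 scale), against 19.4% of 23754 genes called (1550 higher, 3047 lower).

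MM were higher than MG in 7 of the 10 genes and lower in 0, against 49.3% of genes called (26.4% higher, 22.8% lower). Tmsb10 was higher by 1.85 ± 0.22 on the log2 scale (3.60-fold, adjusted p = 2.22e-08), in 8 of 9 hashtags. That count was not made for all genes. Arpc3 was higher by 0.82, Pfn1 by 0.72, Arpc1b by 0.69, Tmsb4x by 0.45, Actg1 by 0.43 and Arpc2 by 0.37 (adjusted p from 4.37e-07 to 0.00447). Actb, Cfl1 and Coro1a differed by 0.069, 0.0052 and 0.15 and did not pass. The calls of Actg1 and Arpc2 were lost with no filter on low counts, where 17.6% of genes were called and their median was -0.44, and with cells thinned to 1000 UMIs, where 65.9% were called. The 2 classes within MM differed. As the median of 4 libraries, the log2 ratio of Tmsb10 to MG was -0.12 in BAM and 3.98 in Mono, and that of Coro1a -0.57 and 1.79. Between T cells and MM, with 39.6% of genes called (16.3% higher, 23.3% lower), Tmsb10 (2.59), Coro1a (0.72), Pfn1 (0.70) and Cfl1 (0.34) were higher in T cells and Arpc1b was lower (-0.49, adjusted p = 0.0169). The Cfl1 and Arpc1b calls were each lost without any of several hashtags, PFF + AZD1480 replicate 1 among them. Actg1 (-0.37, edgeR adjusted p = 0.0540) was called lower in 5 of 9 fits that left out 1 hashtag. With RLE scaling or another MG marker limit 3 were higher and 2 lower, against 39.6% and 42.3% of genes called. Without the block or with at least 2000 UMIs 4 were higher and 2 lower, against 41.0% and 40.3%. With no filter on low counts 3 were higher (Tmsb10, Pfn1 and Coro1a) and 3 lower (Arpc1b, Actg1 and Actb), against 12.2% of all genes called (974 higher, 1918 lower).

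**Figure D4:**
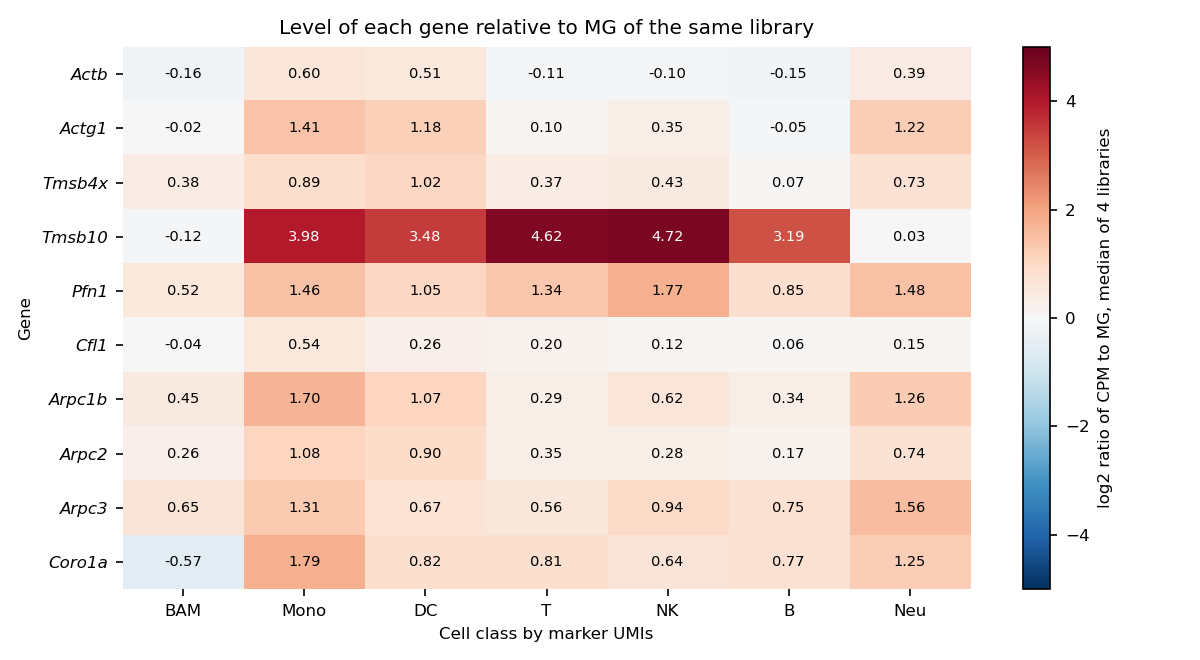
Log2 ratio of each gene's CPM to MG of the same library, as the median of the 4 libraries, for 7 cell classes. Tmsb10 reaches 4.72 in NK cells and 4.62 in T cells, and is near 0 in BAM and Neu.

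With AZD1480, Tmsb10 also fell in MM. It was at 368, 445, 728 and 1025 CPM in the VH hashtags and at 158, 85.8, 242, 236 and 216 in the AZD1480 hashtags, the groups not overlapping. The difference was -1.85 ± 0.31 on the log2 scale (0.277-fold, edgeR adjusted p = 0.00553), and Tmsb10 was the 1 of the 10 genes called, against 0.453% of 3972 genes (0.277% higher, 0.176% lower). Actb was at 5683, 6874, 8680.0 and 7063 CPM with VH and at 4977, 3564, 4745, 4740 and 4483 with AZD1480, also without overlap, and did not pass (log2 -0.67, adjusted p = 0.0557). It passed with library totals, with no filter and by DESeq2 (adjusted p = 0.0366, 0.00467 and 0.00875). Groups did not overlap for these 2 of the 10 genes, against 2.49% of genes in this direction.

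Marker levels moved with these values. The summed CPM of Mono markers in MM was 737 to 1978 with VH and 138 to 1249 with AZD1480, and that of T cell markers 25.5 to 125 and 11.1 to 51.8. Without overlap, immediate early RNA in MM was at 14820.0 to 18225 CPM with VH and 20101 to 28604 with AZD1480, and UMIs per cell were 2879 to 3491 and 4453 to 5807. Their part in the Tmsb10 difference was not tested. In BAM alone, Tmsb10 was at 248, 128, 185 and 283 CPM with VH and at 46.0, 85.8, 19.9, 76.3 and 75.2 with AZD1480 (log2 -1.69, adjusted p = 0.0169). Of the 3521 genes tested in BAM alone, 0.227% were called. The median log2 fold change of the 10 genes was -0.34 in MM and -0.0033 in BAM alone, against -0.0082 and -0.0080 over all genes. With MULTIseqDemux hashtag calls the Tmsb10 difference in MM was -1.78 and did not pass (adjusted p = 0.142). These calls gave 1 hashtag to 19.8% of cells with VH, against 52.0% in the main calls. The fit then tested 2084 genes and did not ask for at least 10 cells per hashtag. The AZD1480 effect on Tmsb10 in MM minus that in MG was -1.01 ± 0.25 on the log2 scale (edgeR adjusted p = 0.0280), the 1 gene of the 10 called in that interaction against 0.388% of all genes (0.305% with a positive and 0.0825% with a negative difference). Without PFF + VH replicate 4 this was -0.62 (adjusted p = 0.536), and without PFF + AZD1480 replicate 2 it was -0.76 (adjusted p = 0.169).

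In T cells 2 AZD1480 hashtags held fewer than 10 cells, and AZD1480 and VH were not compared by a test because the rule for it asked for at least 10 in every hashtag. Actb was at 6557, 5363, 5999 and 7369.7 CPM in T cells of the VH hashtags and at 4286, 4387 and 4706 in the other 3, whereas the Tmsb10 values given above overlapped. The MG markers in these T cell sums, given above, separated the same hashtags, as did UMIs per cell, at 2924 to 4181 with VH and 4685 to 6268 with AZD1480, and their part in the Actb values was not tested. The share of all genes that separated these T cell hashtags was not computed.

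MG high in immediate early RNA (at least 20 UMIs of Fos, Jun, Egr1 and similar genes in a cell thinned to 1000) were compared with the other MG of the same hashtag. Actg1 in these cells was at 1281, 1264, 1168 and 1169 CPM in the VH hashtags and at 1536, 1292, 1144, 1273 and 1378 in the AZD1480 hashtags. In the other MG it was at 627, 684, 646 and 633 and at 573, 592, 505, 530 and 584. The lowest of the former values lay above the highest of the latter in each library, and the difference was 1.26 ± 0.049 on the log2 scale (2.40-fold, edgeR adjusted p = 1.45e-16). The share of all genes that separated these cells in this way was not computed.

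In all, 9 of the 10 genes were higher in the immediate early MG and 0 lower, where 49.1% of 11829 genes were called (25.9% higher, 23.3% lower). Actb rose by 0.65, Cfl1 by 0.52, Arpc2 by 0.42, Coro1a by 0.34, Arpc3 by 0.26, Arpc1b by 0.24 and Pfn1 by 0.19. The difference of Tmsb4x was 0.11 with TMM scaling and -0.059 with library totals, and that of Tmsb10 was -0.091 (adjusted p = 0.0610), or -0.11 with RLE scaling, where it was called lower (adjusted p = 0.0253) and 49.6% of genes were called. It was also called lower without PFF + VH replicate 1 or PFF + AZD1480 replicate 1 or 4. The call of Tmsb4x was lost with cells thinned to 1000 UMIs (28.6% of genes called), and those of Tmsb4x and Pfn1 without the replicate block (34.6% of genes called). With library totals the median of all genes shifted to -0.17, 7 of the 10 genes were called higher and 2 lower, and the calls over all genes turned from 3060 higher and 2752 lower to 1564 higher and 5970 lower. By CPM, Actg1, Actb, Cfl1, Arpc2, Arpc3 and Coro1a were higher in 9 of 9 hashtags, Arpc1b in 8, Pfn1 in 6, Tmsb4x in 2 and Tmsb10 in 0 of 9. How many of all genes were higher in 9 of 9 hashtags was not computed.

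The relation of Actg1 to immediate early RNA was graded and was seen in each library. From the lowest to the highest of 5 bins of immediate early UMIs, Actg1 rose from 362 to 1559.7 CPM in PBS and from 394 to 1523 in monomer. With PFF it rose from 477 to 1420.4 with VH and from 391 to 1532 with AZD1480. Median depth was 6594 and 8319 UMIs in the end bins of PBS and 2837 and 3306 in those of PFF + VH. Tmsb10 was at 68.2 and 63.2 CPM in the end bins of PBS and at 121 and 100.4 in those of PFF + VH. Summed immediate early RNA in MG was 13601 to 18907 CPM in the VH hashtags and 17104 to 18455 in the AZD1480 hashtags, and its part in the AZD1480 comparison was not tested.

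**Figure D5:**
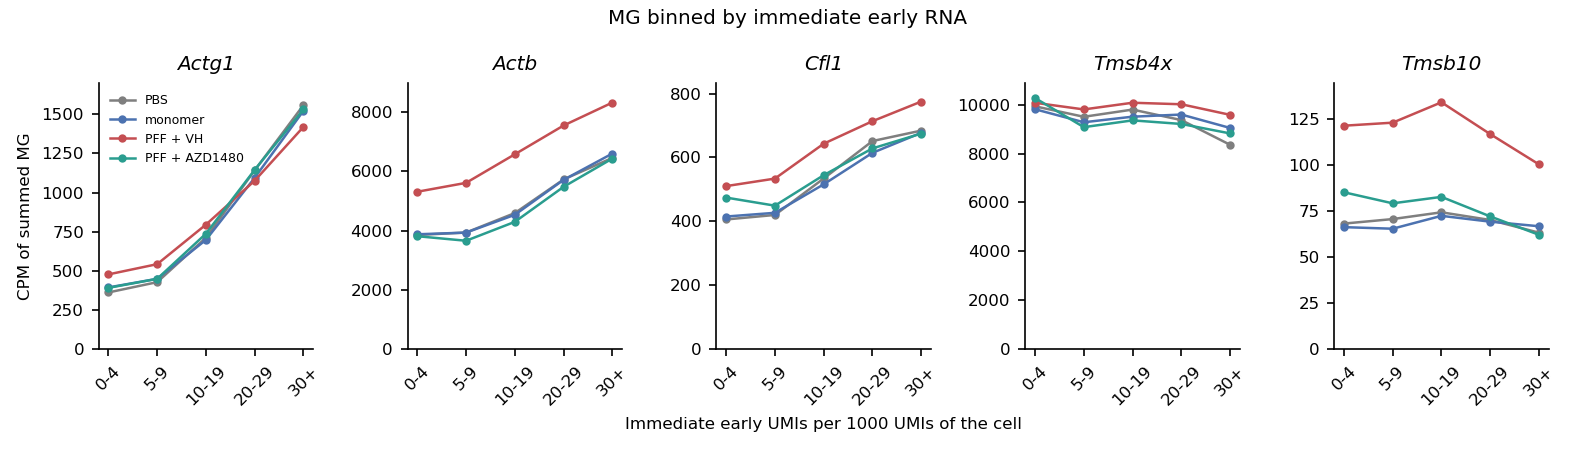
Level of the plotted genes in MG, in CPM, over 5 bins of immediate early UMIs per 1000 UMIs of a cell, 1 line per library. Actg1 climbs in each library, from 362 to 1559.7 CPM in PBS, while Tmsb10 does not.

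Disease-associated MG (DAM, marked by Spp1, Lpl, Cst7 and others) made up 1.90% of thinned MG with PBS and 1.77% with monomer, and after PFF 6.19% with VH and 6.57% with AZD1480. Tmsb10 in DAM was at 249.6, 150.4, 170.3 and 176 CPM with VH and at 117, 113, 129, 83.4 and 102 with AZD1480. In the other MG it was at 121, 123, 142 and 96.3 with VH and at 74.4, 83.4, 68.9, 61.9 and 83.5 with AZD1480. It was higher in DAM in 9 of 9 hashtags, by 0.69 ± 0.078 on the log2 scale (edgeR adjusted p = 7.57e-09). Of the 10 genes, 7 were higher and 0 lower, against 27.8% of 11123 genes called (16.4% higher, 11.3% lower). Arpc1b was higher by 0.41, Cfl1 by 0.31 and Tmsb4x by 0.26, and Arpc3, Arpc2 and Pfn1 by 0.16 each. The call of Arpc2 was lost without PFF + VH replicate 4 or PFF + AZD1480 replicate 2. With library totals 4 were higher (Arpc3, Arpc2 and Pfn1 were lost) and 2 lower, the median of all genes was -0.11, and the calls over all genes turned from 1829 higher and 1258 lower to 1310 higher and 2325 lower. Actb (0.030), Actg1 (-0.025) and Coro1a (-0.097) did not pass, but Coro1a was called lower without PFF + AZD1480 replicate 5 (-0.14, adjusted p = 0.0439). By CPM, Tmsb4x, Cfl1 and Arpc1b were also higher in DAM in 9 of 9 hashtags, and Pfn1, Arpc2 and Arpc3 in 7. Actb was higher in 2, and Actg1 and Coro1a in 1. The share of all genes higher in 9 of 9 hashtags was not computed.

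Other genes of actin regulation were read from a list of 82. In MG, 78 were tested and 10 were higher and 12 lower with AZD1480, shares near the 12.3% and 14.2% of all genes. Of the other subunits of the Arp2/3 complex, 3 of 6 were lower, Arpc5l by 0.25, Arpc4 by 0.24 and Arpc5 by 0.18 on the log2 scale. Among the genes called, the largest falls were in Rac2 (-0.44), Capg, a capping protein (-0.36), and the myosin light chain Myl12b (-0.31), and the largest rises in Ssh2, a cofilin phosphatase (0.40), the SRF cofactor Mrtfb (0.29) and the kinase Rock2 (0.27). In MM, 62 were tested by edgeR and 0 passed, against 0.453% of all genes. At an unadjusted p under 0.05 there were 6 of the 62, and 518 of all 3972 genes.

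The genes named next are those with the largest change among the genes called. In the immediate early MG, 44 of 76 were higher and 7 lower (25.9% and 23.3% of all genes, a split that turned with library totals), led by Rhob (1.10), Srf (0.93) and the tropomyosin Tpm3 (0.67), with Mrtfb (-0.27), Evl (-0.25) and Coro7 (-0.24) the lowest. In DAM, 19 of 76 were higher and 15 lower (16.4% and 11.3% of all genes, a split that turned with library totals), with Rhoc (1.53), Capg (1.42) and the membrane linker Ezr (1.08) at the top and Coro2a (-0.51), Ssh2 (-0.44) and Wasf2 (-0.42) at the bottom. T cells against MG gave 15 higher and 18 lower of 66, near the 24.0% and 31.3% of all genes, from Ezr (3.53), Rac2 (2.67) and Coro2a (2.30) to Rhob (-2.84), Fscn1 (-2.53) and Fmnl3 (-2.12). MM against MG gave 19 higher and 16 lower of 66, near the 26.4% and 22.8% of all genes, from Ezr (2.31), the crosslinker Flna (1.69) and Lsp1 (1.50) to Fscn1 (-2.24), Fmnl3 (-1.76) and Evl (-0.90). T cells against MM gave 13 of 66 in each direction (16.3% of all genes higher and 23.3% lower), from Coro2a (2.49), Rac2 (2.18) and Ezr (1.22) to Rhob (-2.11), Fmnl2 (-1.69) and Dstn (-1.55).

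The genes whose log2 CPM over 25 hashtag sums of MG, MM and T cells was most like the mean of the 10 were Arf5 (Pearson r = 0.94), S100a6, Atp5j2, S100a10 and Serf2 (0.93 each). These sums share libraries and hashtags, so the values describe these sums only.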

How the data were processed

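The matrices the authors deposited hold UMI counts, produced by Cell Ranger (header release 7.0.1) against mm10 from 10x 3' libraries, and both PFF matrices include hashtag counts. Cells with 500 to 15000 UMIs, 250 to 5000 genes and at most 10% mitochondrial UMIs were kept. Cell classes were set by UMIs of marker genes, of which at least 3 had to be detected, and MG by MG marker CPM of at least 0.5 of the library median. No doublet caller was run, but cells with more than 1 hashtag entered no hashtag sum. Hashtags were called with HTODemux (Seurat 5.3.0, quantile 0.99), giving 1 hashtag to 52.0% of cells with VH and 81.0% with AZD1480. That each hashtag is a replicate is an assumption drawn from their number.

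Counts were summed per hashtag and class and tested with edgeR 4.0.16 (R 4.3.3; quasi-likelihood, TMM, filterByExpr, Benjamini-Hochberg over all genes, threshold 0.05), where hashtags had at least 10 cells. The script was tested on simulated data. Library CPM carries exact Poisson 95% intervals, and folds of 1.2 were counted over genes with at least 50 CPM. Alternatives were RLE scaling, library totals, no filter, DESeq2 1.42.0, other hashtag calls, at least 2000 UMIs, thinning to 1000 UMIs, Gm42418, Malat1 and mitochondrial genes left out, a replicate block and leaving out each hashtag. BAM alone, MG of 3000 to 6000 UMIs and another MG limit were added after the data were seen. Named genes were the 10, the 3 genes of the actin list called with the largest change in each direction, and the 5 most like genes. Arp2/3 subunits outside that rule were named after their values were seen. The 10 genes and the lists were chosen with earlier results of these data known. Several of these genes have processed pseudogenes, and how reads shared with such copies were counted was not checked.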

Additional observations from a re-analysis of the deposited data

Results flagged for a closer look

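In 50 groups of 4 or 5 hashtags, 4 held a sample whose gap to the rest passed Dixon's 95% critical value, which chance passes in about 1 in 20 groups. Cfl1 in MG was at 675 CPM in PFF + VH hashtag 2, with the nearest hashtag at 622. Arpc1b in T cells was at 365 CPM in PFF + VH hashtag 3, a sum of 21 cells, with the nearest at 441. In MM of PFF + AZD1480 hashtag 3, a sum of 13 cells, Tmsb4x was at 16908 CPM and Arpc3 at 707, with the nearest hashtags at 12217 and 451. The AZD1480 effect on Tmsb10 differed between MM and MG by -1.01 on the log2 scale in a test of the interaction. Leaving out 1 hashtag gave -1.28 to -0.62, and the call was lost in 2 of 9 such fits. Mono markers, immediate early RNA and depth in MM also moved with treatment, and their part was not tested.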

How the results depend on the processing

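Counts of the 10 genes called moved by over 1.5 times in these cases. With cells thinned to 1000 UMIs, 5 were called for AZD1480 in MG, 3 for T cells against MM and 4 for DAM, where 14.5%, 46.7% and 17.5% of all genes were called. For AZD1480 in MM, 2 (Tmsb10 and Actb) were called with library totals, without a filter and by DESeq2, and 0 with MULTIseqDemux, against 0.579%, 1.01%, 1.11% and 0.144% of all genes. DAM without the replicate block gave 4, against 23.1% of all genes. Leaving out 1 hashtag gave 3 to 6 for T cells against MM, 3 being without PFF + AZD1480 replicate 1, against 34.5% to 39.7% of all genes, and 0 to 1 for the interaction, against 0.311% to 0.576%. The hashtag numbers did not pair the samples (correlations of deviations -0.0304 to 0.0510 in MG and -0.0271 to 0.0400 in MM), and the replicate block gave 6 called genes in MG, the calls of Tmsb4x and Coro1a being lost, and 1 in MM, against 23.6% and 0.782% of all genes.

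Log2 differences that turned sign follow, and the cause was not tested. Actg1 with AZD1480 in MG was -0.0023 with no filter, -0.071 with MULTIseqDemux, -0.016 with at least 2000 UMIs, -0.043 thinned, -0.00060 with the replicate block, -0.34 in cells of 3000 to 6000 UMIs and -0.0049 with the other MG marker limit. With AZD1480 in MM, Tmsb4x was 0.052 thinned and 0.15 in BAM only, Arpc1b 0.030 and 0.0021, Arpc3 0.17 and 0.030 (also 0.20 with MULTIseqDemux and 0.011 with the replicate block), and in BAM only Arpc2 was 0.16 and Coro1a 0.19. MM against MG, Actb was -0.13 with no filter, Cfl1 -0.018 with RLE, -0.054 with totals, -0.19 with no filter, -0.048 with MULTIseqDemux and -0.012 with at least 2000 UMIs, and Coro1a -0.054 with no filter and -0.062 thinned. T cells against MG, Actb was 0.047 without the block, and with no filter Actg1 was -0.39, Cfl1 -0.11, Arpc1b -0.26 and Arpc2 -0.20. T cells against MM, Tmsb4x was -0.20 with no filter and Arpc3 0.083 with at least 2000 UMIs. With totals, Actb in DAM was -0.075 and Tmsb4x in immediate early MG -0.059. In the interaction, Tmsb4x was -0.017 with at least 2000 UMIs and Arpc2 -0.0030 with RLE.

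Leaving out 1 hashtag gave ranges across 0 for Actg1 with AZD1480 in MG (-0.042 to 0.073), Arpc2 and Arpc3 in MM (-0.23 to 0.087 and -0.21 to 0.018), Cfl1 in MM against MG (-0.042 to 0.074), Actb and Actg1 in T cells against MG (-0.14 to 0.031 and -0.022 to 0.17), Arpc3 in T cells against MM (-0.12 to 0.062), Actg1 in DAM (-0.064 to 0.012), and Pfn1, Cfl1 and Arpc2 in the interaction (-0.11 to 0.036, -0.11 to 0.056 and -0.12 to 0.14). With AZD1480 in MG, the call of Tmsb4x was lost without any single hashtag but PFF + AZD1480 replicate 3, and that of Coro1a without PFF + VH replicate 2, 3 or 4 or PFF + AZD1480 replicate 3 or 4. Tests of AZD1480 in T cells and of interferon and cycling MG were not run, because the rule for each on hashtags with at least 10 cells was not met.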

Other observations

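Cycling MG, 13 to 188 cells per library, were above all MG in both thymosins by library, though Tmsb4x was not so in every hashtag. In the order PBS, monomer, PFF + VH and PFF + AZD1480, Tmsb10 was at 219.7, 270.3, 367 and 329 CPM in cycling MG, against 68.9, 68.1, 124 and 76.6 in all MG. Tmsb4x was at 14076, 13194, 12682 and 15730.3 CPM, against 9387, 9443, 9923 and 9333 in all MG. In the VH hashtags, cycling MG were at 8321 to 15257 CPM for Tmsb4x and 139 to 495 for Tmsb10, and the other MG at 9600.4 to 10333 and 101 to 139.8. Actg1 was at 1080 to 1253 CPM in cycling MG of these hashtags and 777 to 943 in the others, and Pfn1 at 742 to 1038 and 579 to 713. Arpc3 was lower on average in cycling MG of the VH hashtags, at 229 to 287 CPM against 281 to 299. In the 2 AZD1480 hashtags with enough cycling MG it was at 315 to 451, against 240.3 to 246.5 in other MG of the AZD1480 hashtags. Interferon-responsive MG, 21 to 185 cells per library, had Tmsb10 at 78.7, 93.1, 179.8 and 87.7 CPM in the same order. These groups were not tested, and no share over all genes was computed for them.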
